A study of Mus musculus with 13 samples.

Results

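The cytosolic ribosomal protein genes make the protein part of the ribosomes that translate nuclear-encoded mRNA. They were taken here as all genes that the platform annotation names with a symbol of the form Rps or Rpl and a number, or Rplp and a number, on a probe set with that symbol alone. The rule found 34 of the 8387 genes that have a probe set with 1 symbol on either array version. All 34 were on the U74A array and 32 were on the U74Av2 array, where Rpl24 and Rps25 had no such probe set. The rule used names only, though it was set with earlier results of these data known. Where a gene had several probe sets, which was so for 8 genes on U74A and 10 on U74Av2, the one with the highest mean signal stood for it.

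RNA was measured on 13 Affymetrix arrays of mouse embryonic stem (ES) cells from lines S1 and D4. All cells had been kept with 500 pM leukaemia inhibitory factor (LIF), the cytokine that holds ES cells undifferentiated, and were then plated at 10000 cells per ml without it for 3 days. They stayed untreated or received 10 µM PD169316 or 10 µM SB203580 for that time. Both compounds are pyridinyl imidazole inhibitors of the p38 kinases, and they differ on the 2-phenyl ring, whose para substituent is nitro in PD169316 and methylsulfinyl in SB203580. S1 grows feeder free. D4 is feeder-dependent and was passaged off its feeders before plating. U74A carried S1 as 2 control, 2 PD169316 and 1 SB203580 arrays, and D4 as 1 control and 1 PD169316 array. On U74Av2 there were 2 arrays of S1 for each of the 3 conditions. Only adherent cells were lysed, so detached cells were not measured, and in such bulk RNA fewer cells of a type and less RNA per cell cannot be told apart. Nothing in the labels says that replicates came from separate cultures, so each p-value speaks only of the spread between these arrays, which may be technical.

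A cytosolic ribosome has a small 40S subunit, which decodes the mRNA, and a large 60S subunit, which joins the amino acids. The proteins of the 40S subunit carry Rps symbols and those of the 60S subunit carry Rpl symbols. Rplp0 is the base of the stalk of the 60S subunit that recruits translation factors. The mRNAs of ribosomal proteins are among the most abundant of a growing cell. They typically begin with a terminal oligopyrimidine (TOP) tract, a C followed by a run of pyrimidines, through which mTOR signalling controls their translation rather than their amount. ES cells divide fast and make many ribosomes.

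The start-site sequences of the members are shown because such a tract is the feature that these mRNAs are known to share and that the naming rule did not use. RefSeq promoters of build GRCm38.p6 were matched by symbol for 27 of the 34 members. The letters CTTTC, the variant CTTCC or the variant CTTTT on the strand of the gene, within 20 bases before to 10 bases after a listed start, was present for 11 of 27 members (40.7%), and for 15.5% of 27025 genes. CCGGAAG, the core of an ETS factor motif, searched on both strands over 300 bases, was present for 11 of 27 members (40.7%), and for 9.9% of the same genes. On the other strand this motif reads CTTCCGG, which contains CTTCC. A single site can thus count in both searches, as for Rps7, and the shares are not independent. The lines below give 30-base windows, 5′ to 3′ on the strand of the gene, with each match to these letters in capitals. The first 4 are examples of members that gave bright signals and hold a match. Other bright members hold none, among them Rpl6, Rplp0 and Rps3, and a second listed start of Rps24 has none.
Rps10: acgctgcgccgcgcacgcccCTTCCTTTCc
Rps18: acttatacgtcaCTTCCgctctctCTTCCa
Rpl7a: ccacaattccctcttCTTTCTTTCtccagc
Rps24: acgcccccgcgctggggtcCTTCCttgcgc
Rpl39l: cctagctcccaggcCTTTCcggatttccgg
Rps19: agcactccgaaatctcgcgagactcgacgc
Rps4x: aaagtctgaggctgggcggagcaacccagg
These windows lie at chr17:27635235-27635264 on the minus strand for Rps10, chr17:33955656-33955685 on the minus strand for Rps18, chr2:26910787-26910816 on the plus strand for Rpl7a and chr14:24490658-24490687 on the plus strand for Rps24. That of Rpl39l, a paralog of Rpl39, is chr16:10170208-10170237 on the plus strand and holds a match before the listed start. Rps19, at chr7:24884572-24884601 on the plus strand, and Rps4x, at chrX:102189382-102189411 on the minus strand, are shown because the results below turn on them, and these windows hold none of the searched letters. A match is a description of the letters and not evidence of where transcription starts in these cells.

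The arrays and the labels were checked first. Median signals lay between 89.7 and 133.8 per array. The 3' to 5' signal ratio of Actb, a sign of RNA integrity, reached 3.314 and 3.21 for the S1 controls of replicate 1, and 1.464 to 2.25 elsewhere. The file headers place those controls, with every other S1 array of replicate 1 and the U74A SB203580 array, on 1 hybridization day (here numbered 3). Of 9 ES cell markers, 8 had a signal of at least 100 on every U74Av2 array and 5 or 6 on the U74A arrays, where Nanog and Dppa5a were listed at 0. Their summed signal on U74Av2 was 37473 to 38614 in controls, 24985 to 28065 with PD169316 and 25636 to 29542 with SB203580. On U74A it was 15500.0 and 20959 in S1 controls, 10148 and 12920 with PD169316, 18196 with SB203580, and 11781 and 12339 in D4. The sums of 8 fibroblast markers stayed between 1185 and 2516 on all arrays. The sums of 11 endoderm markers on U74Av2 were 1487 and 1727 in controls, 1986 and 3437 with PD169316, and 1348 and 1420 with SB203580. On U74A they were 879 and 2186 in S1 controls, 2056 and 3031 with PD169316, 1404 with SB203580, and 1509 and 1830 in D4. The part of these shifts in the results below was not tested.

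The ribosomal protein genes fell into a bright class and a somewhat smaller class that was dim or unmeasured. On each version the same 19 genes had a signal of at least 1000 on every array. They were the 40S genes Rps3, Rps4l, Rps4x, Rps7, Rps10, Rps18, Rps19, Rps24 and Rps28, the 60S genes Rpl6, Rpl7, Rpl7a, Rpl8, Rpl10a, Rpl13a, Rpl19, Rpl37a and Rpl41, and the stalk gene Rplp0. Their signals ran from 2933.9 to 58632.4 on U74A and from 3299.0 to 52805.1 on U74Av2. Signals are intensities that the authors scaled to a trimmed mean of 300 on each array, and no gene was set against another, since a probe set's brightness also depends on its probes.

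Within the bright class each gene was compared with itself over treatments and lines. The ratio of the highest to the lowest array lay between 1.28 and 2.02 for each of the 19 genes on U74A. On U74Av2 it lay between 1.1, for Rpl19, and 3.55, for Rps19. Rplp0 measured 26597 to 40137 on U74A, with a median of 34303. Rps3, a 40S protein that also has a DNA repair role, measured 17351 to 28277 on U74A and 16508.0 to 22239 on U74Av2. Rpl10a, a 60S protein, measured 8493 to 12657 and 7709 to 10878 on the 2 versions.

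The other members were dim or unmeasured. On each version 5 genes had a mean signal of 100 or more without reaching 1000 on every array. A further 6 genes on U74A and 8 on U74Av2 had a mean under 100. Rpl24, Rpl32, Rps25 and Rps27l were listed at 0 on all U74A arrays, as were 2611 probe sets in all, so these zeros are not a measure of expression. Rps27l, a paralog of Rps27 that p53 induces, measured 22.3 to 116.4 on U74Av2. Rpl38, a 60S protein linked to translation of Hox mRNAs in the mouse embryo, measured 37.9 to 216.9 on U74A and 20.8 to 105.9 on U74Av2. Low signals such as these sit near the floor of 32 and carry large errors.

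Some probe sets cannot be tied to 1 mRNA with certainty. Ribosomal protein genes have many processed pseudogenes, and the suffixes of the probe sets for Rpl41 and Rps28 (f), Rpl7 and Rps4l (s), and Rps13, Rps24, Rpl32 and Rpl38 (r) mark probes that are shared with similar sequences or were chosen under relaxed rules. A second bright probe set of Rps28 measured 20211 to 31521 on U74A, and a further dim one measured 156.2 to 555.2. The probe set of Rps4l without a suffix averaged 44.3 on U74A and 57.9 on U74Av2, against 5355.9 and 5703.0 for its s probe set. That of Rpl7 averaged 70.9 and 38.4, against 19773.7 and 18424.2 for the s probe set. That of Rps24 averaged 70.6 and 62.3, against 29376.5 and 31813.1 for the r probe set. The bright signals of Rps4l, Rpl7 and Rps24 thus rest on suffixed probe sets. Whether these read the named gene alone was not tested. Rplp1, Rplp2, Rps6, Rpl5 and Rpl11, among other ribosomal protein genes, had no probe set with a single symbol and are not members.

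**Figure D1:**
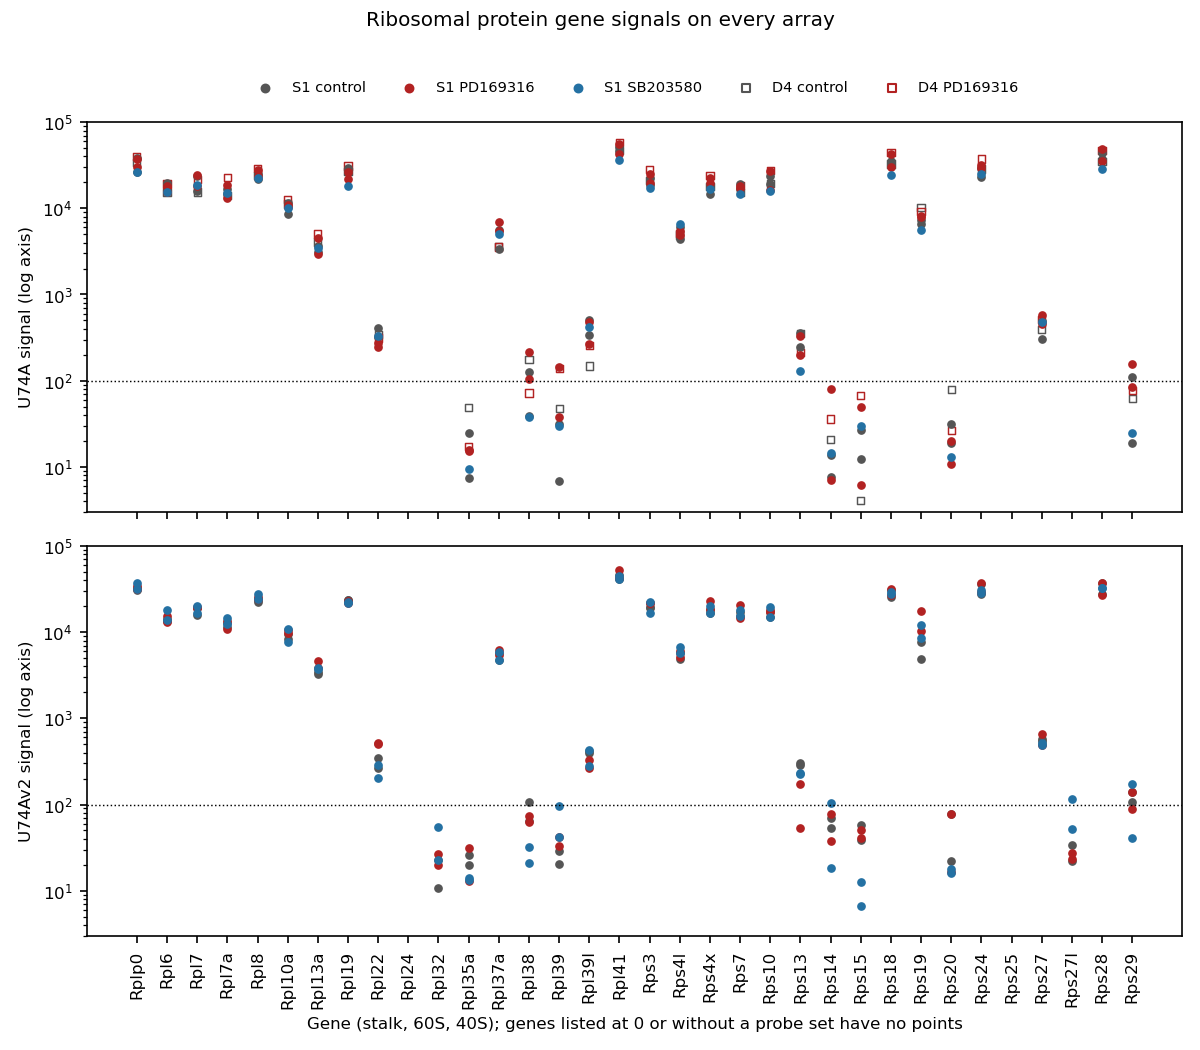
Signal of each ribosomal protein gene on each array (log axis), with 1 panel per array version, genes along the horizontal axis and points coloured by line and treatment. The dotted line marks a signal of 100. The 19 bright genes measure 2933.9 or more on every array of both versions, while the other measured members reach at most 661.9 and lie on both sides of the dotted line.

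The main question of the study was what p38 inhibition alters in ES cells without LIF. For PD169316 against control in S1, no ribosomal protein gene passed the test. The 24 members that could be tested on both versions had a median log2 fold change of 0.099, and 20 of them were positive and 4 negative. Of them, 22 lay within 0.5 of 0 on the log2 scale, as did 77% of all probe sets. The member with the largest positive value was Rps19, a 40S protein that is mutated in Diamond-Blackfan anaemia, at 0.67, and the most negative was Rps13, another 40S protein, at -0.92.

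The test was limma on log2 signals, adjusted over all probe sets tested, two-sided, with an adjusted p threshold of 0.05. A probe set was tested where its signal reached 100 on 2 or more arrays. On U74A 0 of 25 members passed, against 0.0176% of 5681 probe sets, and 0 members had an unadjusted p under 0.05, as did 264 of all probe sets. On U74Av2 0 of 24 members passed, against 0.128% of 7050 probe sets (0.0993% higher and 0.0284% lower), and 3 had an unadjusted p under 0.05, as did 589 of all probe sets. Over both versions 0 of 24 passed, against 1.88% of 5369 probe sets (1.38% higher and 0.503% lower), and 2 had an unadjusted p under 0.05, as did 625 of all probe sets. At these shares fewer than 1 call among 24 members is what the background gives, so the count of 0 does not set the members apart.

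The estimates of the members, most of which are bright, were tighter than those of all probe sets. The median 95% confidence interval reached 0.35 to either side of the log2 fold change for members and 0.59 for all probe sets over both versions. It reached 0.34 for the bright 19 genes and 0.55 for the other 5 tested members. The probe sets were not matched to the members by signal. The median size of the log2 fold change, without its sign, was 0.14 for members and 0.27 for all probe sets. On the log2 scale the bright 19 genes had a median of 0.073, 17 of 19 were positive, and 18 lay within 0.5 of 0. The median over all probe sets was 0.027, and 77% of them lay within 0.5 of 0.

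By subunit, the 12 tested genes of the 40S subunit had a median log2 fold change of 0.10 with PD169316, with 11 positive. The 11 tested genes of the 60S subunit had a median of 0.13, with 8 positive. Rplp0 measured 0.062 ± 0.17 (SE), with a 95% interval from -0.28 to 0.40. The difference between the subunits was not tested.

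**Figure D2:**
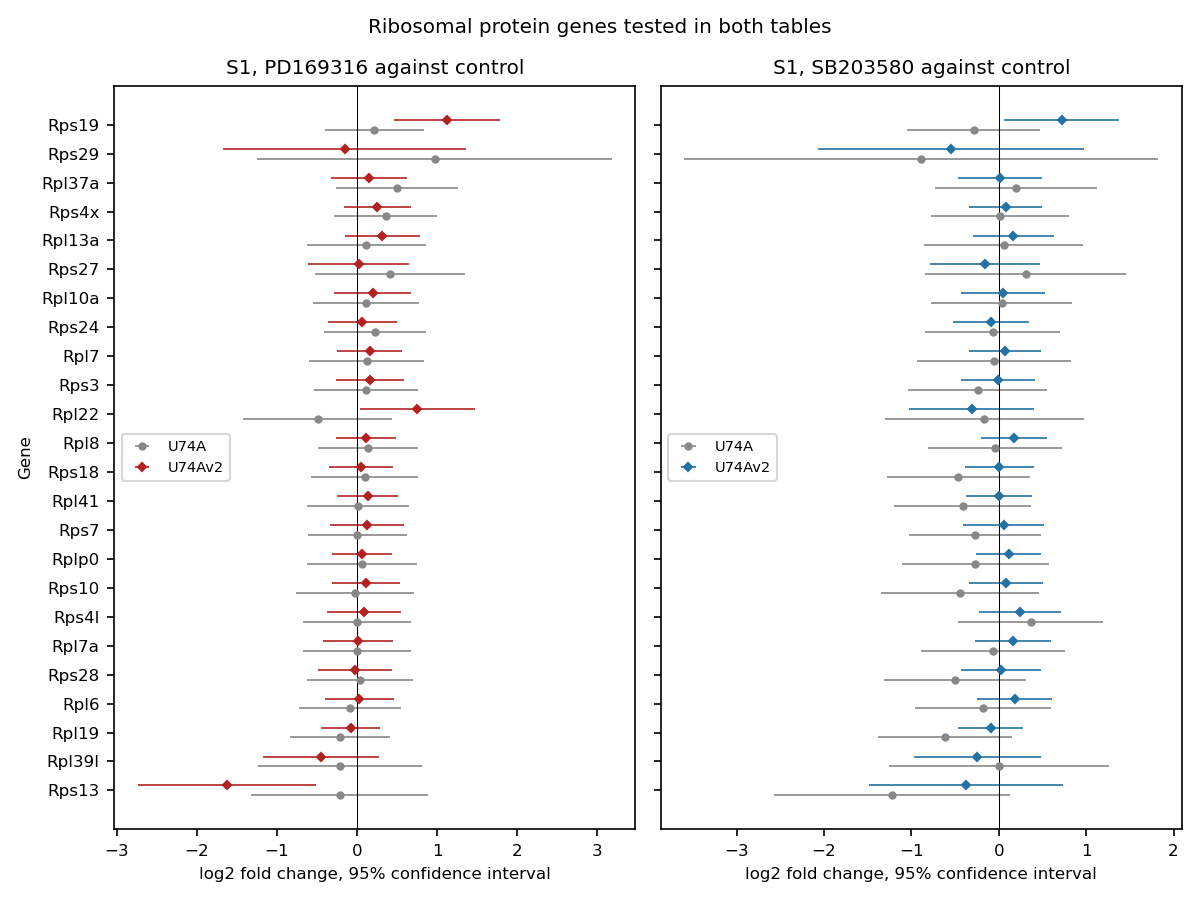
Log2 fold change of the 24 members tested on both versions, with U74A in grey and U74Av2 in colour and 95% confidence intervals as lines, for PD169316 and SB203580 against control in S1. Most PD169316 points sit just right of 0 with intervals that include it, and on U74Av2 Rps19 (1.13) and Rps13 (-1.62) lie farthest out.

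The small positive median moved between replicate pairs. With each PD169316 array set against the control of the same number, the member median was -0.061 for pair 1 and 0.15 for pair 2 on U74A. On U74Av2 it was 0.12 for pair 1 and 0.071 for pair 2. The members' median difference between the U74A control arrays themselves, replicate 2 minus replicate 1, was 0.25, with 20 of 25 members higher, and between the U74A PD169316 arrays it was 0.33, with 23 of 25 higher. On U74Av2 the same difference was -0.052 for controls, -0.10 for PD169316 and -0.12 for SB203580, where the median with PD169316 was 0.099. The shift of the list between arrays of 1 group on U74A was larger than its shift with the compound under the deposited scaling.

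That replicate shift lay along the hybridization days. The U74A arrays of replicate 2 were hybridized on day 2 and those of replicate 1 on day 3, and the arrays also came from different lots. After each array was centred on its median, the control difference was -0.18 and the PD169316 difference 0.072, and quantile normalization gave 0.13 and 0.035. The sign of the control difference thus depends on the scaling. Centring lowered the median log2 fold change of PD169316 against control from 0.099 to 0.023.

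**Figure D3:**
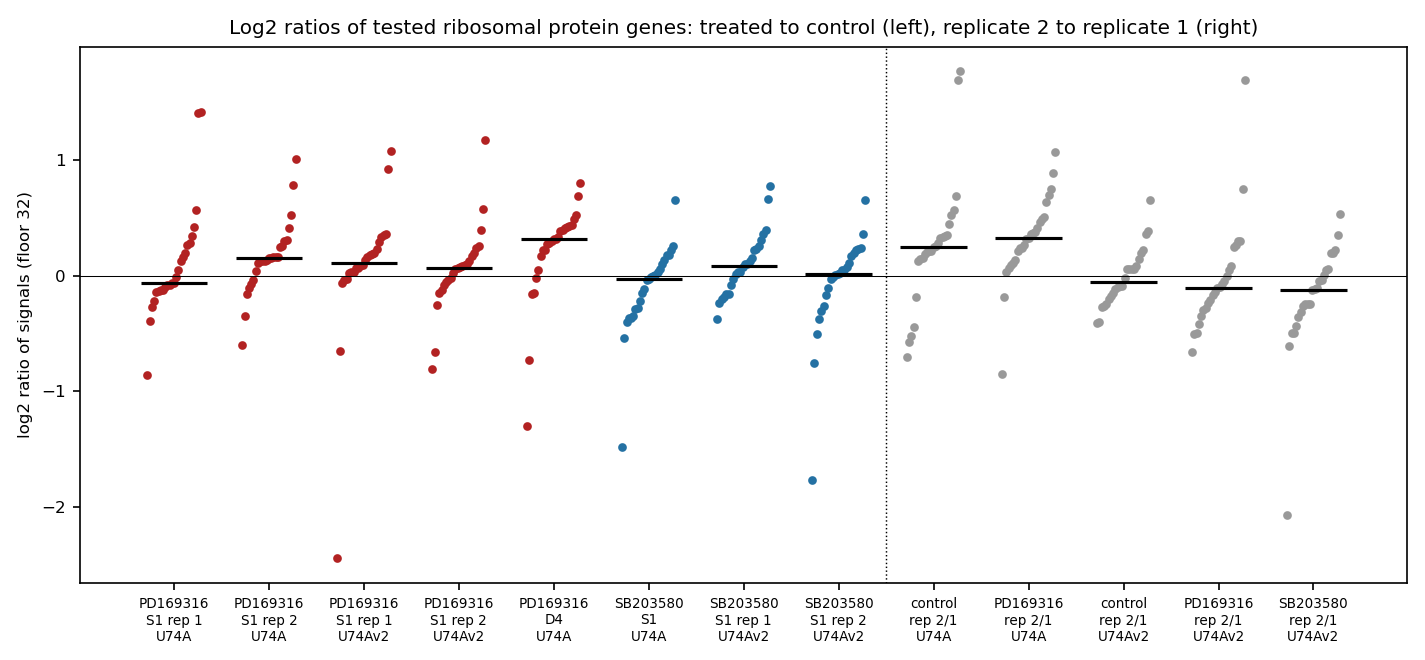
Log2 ratio of each tested member within each replicate pair and between replicate arrays of 1 group, with black bars at the median of the members. The member medians of the PD169316 pairs lie between -0.061 and 0.32, and those between U74A replicates at 0.25 and 0.33.

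Rps19 stood out among the 40S genes. On U74Av2 its signal was 4936.6 and 7765.2 in controls, 10418.6 and 17519.6 with PD169316, and 8455.2 and 12276.9 with SB203580. On U74A it was 6579.6 and 7264.0 in S1 controls, 7933.0 and 8125.1 with PD169316, and 5659.3 with SB203580. Both PD169316 arrays were above both controls on each version, and both SB203580 arrays were above the controls on U74Av2 while the single one on U74A was below them.

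The size of the Rps19 difference depended on the array version. The log2 fold change for PD169316 was 1.13 ± 0.30 (SE) on U74Av2, with a limma adjusted p of 0.245, and 0.22 ± 0.27 on U74A, with an adjusted p of 0.983. Over both it was 0.67 ± 0.20, with a 95% interval from 0.27 to 1.07 and an adjusted p of 0.196. With the replicate number as a block, limma gave the same log2 fold change of 0.67 with an SE of 0.15 and an adjusted p of 0.018, under which 3.77% of 5278 probe sets passed. Without the S1 controls of day 3 it was 0.47 with an adjusted p of 0.748. Of 22 alternatives over both versions, the replicate block and the hybridization day block were those that called Rps19.

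Rps13 had the opposite sign and a low signal. On U74Av2 it measured 291.2 and 302.8 in controls, 53.5 and 173.6 with PD169316, and 224.9 and 233.4 with SB203580. On U74A it measured 357.1 and 249.1 in S1 controls, 197.7 and 332.3 with PD169316, and 127.8 with SB203580. The PD169316 arrays lay below the controls on U74Av2 and overlapped them on U74A.

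The Rps13 log2 fold change for PD169316 was -1.62 ± 0.51 (SE) on U74Av2, with a limma adjusted p of 0.365, and -0.22 on U74A. Over both it was -0.92 ± 0.35, with an adjusted p of 0.348. Without the second PD169316 array of U74Av2 the value there was -2.47 ± 0.42 with an adjusted p of 0.0454, under which 0.606% of 6936 probe sets passed. With the hybridization day as a block the U74Av2 adjusted p was 0.0326, under which 2.27% of probe sets passed. The r probe set of Rps13 is one of those less certain to read 1 mRNA.

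Rps4x, the X-linked S4 protein of the 40S subunit, was the other member with every PD169316 array above the controls of its version. Its signal was 14583.4 and 18433.5 in S1 controls, 19516.9 and 22673.0 with PD169316 and 16549.4 with SB203580 on U74A. On U74Av2 it was 18102.1 and 16697.2 in controls, 22815.9 and 18825.5 with PD169316, and 20115.0 and 16841.4 with SB203580. The SB203580 arrays overlapped the controls on both versions. The PD169316 log2 fold change over both was 0.31 ± 0.17, with a 95% interval from -0.026 to 0.64 and a limma adjusted p of 0.523.

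Arrays of treated and control cells that do not overlap are common at this group size. Over both versions Rps19 and Rps4x were higher on every PD169316 array than on every control of the same version, 2 of 24 members, against 6.82% of all probe sets. No member was lower in this way, against 4.81%. On U74A alone 2 of 25 members were higher, against 18.7%, and Rpl22 was lower, against 14.7%. On U74Av2 alone 8 of 24 members were higher, against 19.8%, and 3 were lower, against 18%.

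Among the 60S genes, Rpl22, whose product is dispensable for general translation and acts in T cell development in the mouse, differed in sign between the versions. On U74Av2 it measured 263.4 and 345.0 in controls, 498.9 and 516.0 with PD169316, and 288.4 and 204.9 with SB203580. On U74A the same probe set measured 324.4 and 412.9 in S1 controls, 248.3 and 273.5 with PD169316, and 326.5 with SB203580. The PD169316 arrays were above the controls on one version and below them on the other. The log2 fold changes were 0.75 ± 0.33 and -0.49 ± 0.41, and 0.13 over both.

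Rpl39l, a paralog of Rpl39 that is best known from the testis, measured 420.7 and 395.3 in U74Av2 controls 268.6 and 331.9 with PD169316, and 425.5 and 278.9 with SB203580. On U74A it measured 509.0 and 342.4 in S1 controls, 482.5 and 268.6 with PD169316, and 418.2 with SB203580. The PD169316 arrays lay below the controls on U74Av2 and overlapped them on U74A. Its log2 fold change over both was -0.33 ± 0.28, with a limma adjusted p of 0.695. Rpl37a, a zinc-binding 60S protein, gave 0.32 ± 0.20, Rpl19 gave -0.15 ± 0.16 and Rpl6 gave -0.027 ± 0.17, all on the log2 scale and with intervals that include 0.

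The dim 40S gene Rps29 gave 0.41 ± 0.60, and this value turned to -0.13 without the day 3 controls. Over the 4 S1 pairs, 6 of 24 members were higher in every pair (Rpl7, Rpl8, Rps3, Rps19, Rps24 and Rps4x), against 12.6% of all probe sets. Rpl19 and Rpl39l, 2 of 24, were lower in every pair, against 10.6%. These are descriptions of the pairs, since the pairs of replicate 1 on the 2 versions share a hybridization day and may share RNA.

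**Figure D4:**
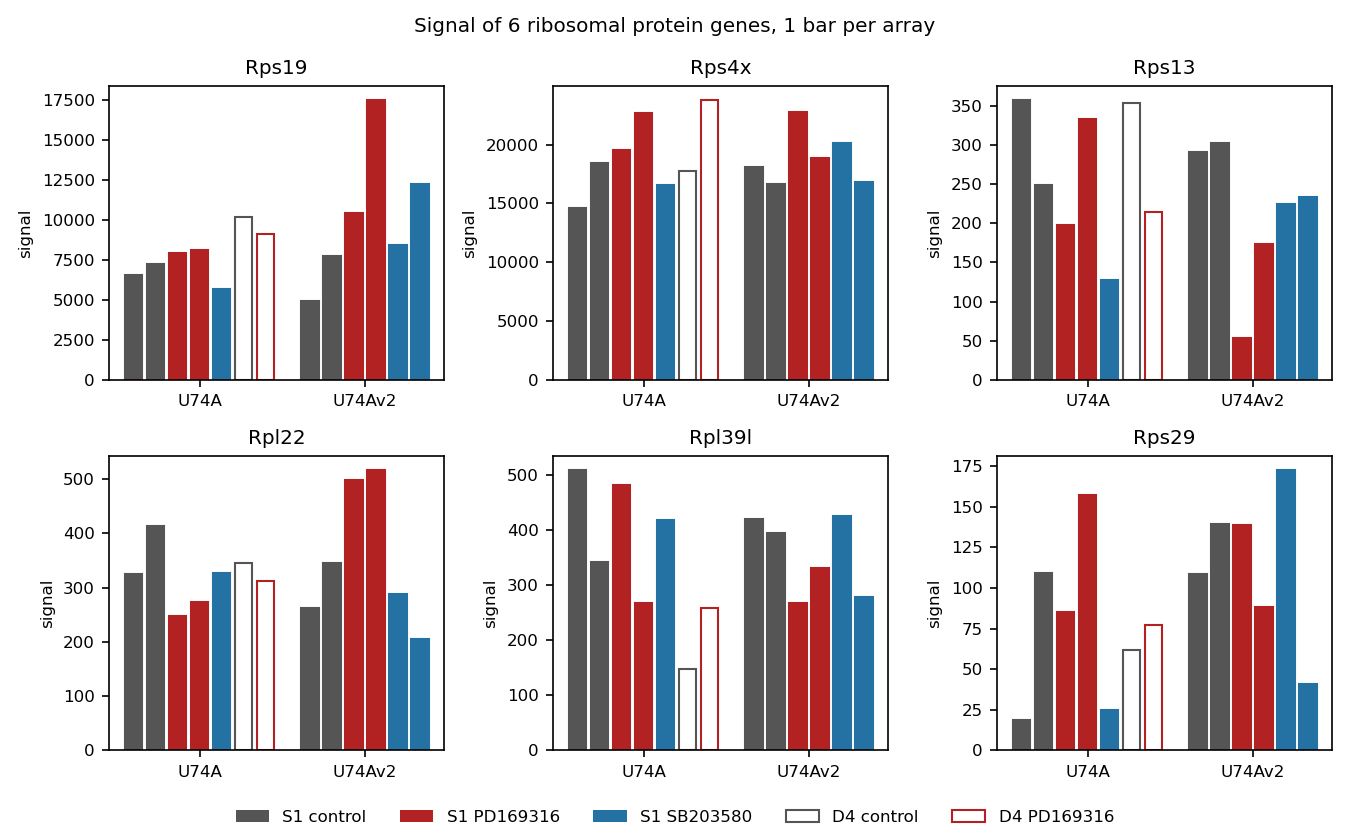
Signal of Rps19, Rps4x, Rps13, Rpl22, Rpl39l and Rps29 on every array, as bars from 0, with U74A and U74Av2 arrays set apart. Rps19 and Rps4x are higher with PD169316 than in the S1 controls on both versions, and Rpl22 reverses between them.

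SB203580 against control in S1 also gave no member past the test. On U74A 0 of 25 and on U74Av2 0 of 24 members passed, and over both versions 0 of 24, against 0% of all probe sets each time by the same limma test. At an unadjusted p under 0.05 the members numbered 0, 1 and 0, and all probe sets 85, 335 and 249. The members' median log2 fold change was -0.18 on U74A, with 1 SB203580 array, 0.037 on U74Av2 and -0.079 over both, with 11 positive and 13 negative. Quantile normalization turned the U74A median to 0.043.

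Over both versions the 95% interval included 0 for 23 of the 24 members, with Rps13 as the exception. The limma z scores summed over both versions gave Rps13 an unadjusted p of 0.0749, so interval and test differ there. The intervals over both versions take normal limits around the mean log2 fold change and may be too narrow. Rps4l, an S4 paralog measured here by its s probe set, gave 0.30 ± 0.21 on the log2 scale. Rps19 gave 0.21 ± 0.22 and Rpl13a, a 60S protein, gave 0.11 ± 0.23. Rps13 gave -0.80 ± 0.39, Rps29 -0.72 ± 0.69, Rpl19 -0.35 ± 0.19 and Rps28 -0.24 ± 0.21. Each of these had a limma adjusted p of 0.995.

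Rpl19 shows how far the versions differ. On U74A it measured 26147.5 and 29190.8 in S1 controls and 18047.4 with SB203580. On U74Av2 it measured 23768.4 and 23513.0 in controls and 22551.3 and 21876.5 with SB203580. The treated arrays lay below the controls on both versions, by little on U74Av2. On U74Av2 4 of 24 members were higher on both SB203580 arrays than on both controls, against 15.3% of all probe sets, and 3 were lower, against 20%.

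PD169316 and SB203580 were compared directly at the same dose and time, as 1 pair of compounds. On U74A 0 of 25 members differed, against 0% of all probe sets, on U74Av2 0 of 24, against 0.0426%, and over both versions 0 of 24, against 0.689% (0.522% higher and 0.168% lower with PD169316). On U74Av2 Rpl13a and Rpl22 were higher on both PD169316 than on both SB203580 arrays, against 20.6% of probe sets, and Rps13 was lower, against 15%. The median difference, PD169316 minus SB203580, was 0.19 on the log2 scale over both versions, with 19 of 24 positive. It was 0.30 on U74A and 0.072 on U74Av2. Centring took the U74Av2 median to -0.038 and that over both to 0.054, so the sign on U74Av2 depends on the scaling.

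The differences between the compounds are bounded by wide intervals. For Rps19 the difference was 0.46 ± 0.22, with a 95% interval from 0.015 to 0.90. By limma its unadjusted p was 0.0603 and its adjusted p was 0.488, so interval and test differ here too. For Rpl22 the difference was 0.37 ± 0.30 over both versions, with an interval from -0.22 to 0.95. On U74Av2 it was 1.06 ± 0.33, with a limma adjusted p of 0.491. Rps29 gave 1.12 ± 0.69, Rps18 0.30 ± 0.20 and Rps4l -0.26 ± 0.21. For Rplp0 it was 0.14 ± 0.20, with an interval from -0.26 to 0.54. These intervals do not show that the nitro and the methylsulfinyl compound act alike on these genes.

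In D4 cells there was 1 array of each kind, so only values can be given. Of 25 members, 20 were higher with PD169316 and 5 lower, where 49.2% of all probe sets were higher. The median log2 ratio of the members was 0.32, and that of all probe sets was 0. Of the bright 19 genes, 17 were higher, with a median of 0.316. Quantile normalization took the median of all tested members to -0.0034, and centring took it to 0.42.

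Single D4 values were as follows. Rpl7a, a 60S protein, measured 14168.8 in the control and 22870.2 with PD169316, a log2 ratio of 0.69. Rpl39l measured 148.1 and 258.5, a ratio of 0.80, and the dim Rpl39 measured 47.4 and 137.3. In the opposite direction Rpl38 measured 177.6 and 72.0, a log2 ratio of -1.30, Rps13 353.4 and 213.7, and Rps19 10222.3 and 9156.6. Rpl38 was the 1 tested member of 25 past 2-fold, where 9.42% of all probe sets were more than 2-fold lower and 9.47% more than 2-fold higher. Rps19 was not higher with PD169316 in D4, with a log2 ratio of -0.16.

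The PD169316 effect was not shown to differ between the lines. By limma's interaction term on U74A, in which the single D4 arrays were taken to vary like the S1 arrays, 0 of 26 members passed, against 0% of 6219 probe sets. The count of 0 is therefore no result about the members. The median interaction was 0.24 on the log2 scale, D4 minus S1, and quantile normalization took it to -0.035. For Rps19 the interaction was -0.37 ± 0.47, and for Rpl38 it was -2.41 ± 1.37.

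The lines themselves were also compared. For D4 against S1 on U74A 0 of 26 members passed the limma test, against 0% of 6219 probe sets, 1 had an unadjusted p under 0.05, as did 392 of all probe sets, and the median log2 difference was 0.12. As no probe set passed, the count of 0 is no result about the members. The 1 member was Rpl39l, at 148.1 and 258.5 in D4 and 268.6 to 509.0 on the 4 S1 control and PD169316 arrays. Both D4 arrays were below all 4, against 5.66% of all probe sets, with a log2 difference of -0.99 ± 0.41 and an adjusted p of 0.775. Rpl37a gave -0.53 ± 0.26, Rpl39 0.73 ± 0.85, Rps19 0.38 ± 0.22 and Rpl13a 0.36 ± 0.25. Rps19 was the 1 member of 26 with both D4 arrays above all 4, against 9.28% of all probe sets. The D4 arrays were all hybridized on day 1, apart from the S1 arrays, so line and day cannot be told apart.

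Other genes of ribosome production and translation were set beside the members for PD169316 against control in S1 over both versions. Of 53 tested mitochondrial ribosomal protein genes, 0 passed, 28 were positive and 25 negative, and the median log2 fold change was 0.0070. Of 23 translation factors and other TOP mRNAs, 0 passed and the median was -0.10. Of 4 tested S6 and mTOR kinases, 0 passed and the median was -0.19. Of all probe sets 1.88% passed, so counts of 0 in lists of this size do not set the lists apart. The medians of these lists lay within 0.5 of 0, as that of the ribosomal protein genes did. So did that of the ribosome biogenesis genes below, and this limit does not separate the lists.

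The ribosome biogenesis genes, which assemble ribosomes in the nucleolus, were set beside the members in the same way. Of 34 tested, 32 were negative and 2 positive with PD169316, with a median log2 fold change of -0.37, where 52.7% of all probe sets were positive. By the same test 1 of 34 passed, against 0.503% of all probe sets that passed as lower. That gene was Utp14a, a processome component that helps to cut the rRNA precursor, which fell by 1.52 ± 0.28 on the log2 scale with a limma adjusted p of 0.00799. Gar1, of the pseudouridylation complex, gave -0.76 ± 0.23, Pa2g4, a nucleolar growth regulator, -1.07 ± 0.30, and Nop10, a partner of Gar1, -0.59 ± 0.22, none past the threshold.

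The biogenesis values varied between pairs. Their median log2 ratio was -0.67 and -0.036 in pairs 1 and 2 on U74A, and -0.54 and -0.19 on U74Av2, so the difference was larger in pair 1 on each version. Utp14a gave -2.27 and -1.58 in the U74A pairs and -2.05 and -0.17 in the U74Av2 pairs. Between the U74A control arrays alone, replicate 2 minus replicate 1, the median was -0.58. Without the day 3 controls the median over both versions was -0.23, with 29 of 34 negative, 0 passed, and Utp14a gave -1.34 with a limma adjusted p of 0.0919. The median for SB203580 against control was 0.039, and for D4 with PD169316 it was -0.019. The difference between the biogenesis list and the ribosomal protein genes was not tested.

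**Figure D5:**
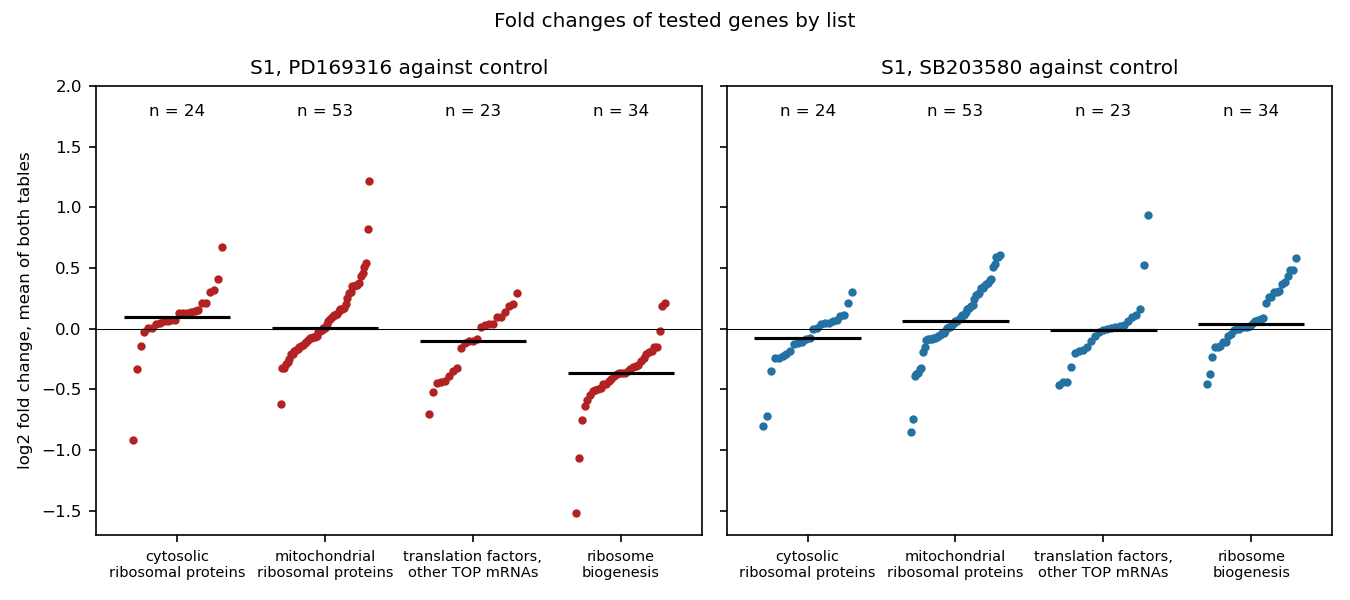
Log2 fold change over both versions of the tested genes of the ribosomal protein (24), mitochondrial ribosomal protein (53), translation factor (23) and ribosome biogenesis (34) lists, for PD169316 and SB203580 against control in S1. The biogenesis genes lie mostly below 0 with PD169316 (median -0.37), and the ribosomal protein genes lie close to 0 (median 0.099).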

How the data were processed

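Per the labels' protocols, the authors made biotin-labelled cRNA from 5 µg of total RNA, hybridized 10 µg and computed intensities per probe set with Microarray Suite, scaled globally to a target of 300. The deposited intensities of U74A (7 arrays) and U74Av2 (6 arrays) were scaled separately, so tests stayed within a version. Signals under 32 were set to 32 and taken to log2, so changes of dim genes are understated. Affymetrix control probe sets were left out.

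Groups came from the sample titles. The S1 arrays of a version shared 1 estimate of the spread, and a single array was taken to vary as much as replicated ones. The fits used limma 3.58.1 in R 4.3.3 (lmFit, eBayes with an intensity trend, Benjamini-Hochberg over all probe sets tested) and were tested on simulated data. A simulated log2 fold change of 1 was recovered for 8.96% of the changed probe sets on U74A, 16.4% on U74Av2 and 40.3% over both. A change of 2 was recovered for 53.7%, 79.1% and 95.5%. The simulated versions were drawn independently. A count of 0 can therefore miss most changes of log2 1 or less, and on a single version also many changes of 2. Only PD169316 against control in S1 was simulated, so comparisons that rest on a single array in a group were not covered. D4 against S1 had treatment as a term. Over both versions, the sum of both z scores over the square root of 2 was tested, and the effect is the mean of both log2 fold changes. This treats the versions as independent, and the 95% intervals of that mean use normal limits, which may be too narrow. The PD169316 log ratios of pair 1 on both versions correlated at 0.431 over 5369 probe sets, and other pairs at 0.0547 to 0.24, so these p-values and SEs may be too small. The number of arrays limits the precision.

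Controls and PD169316 arrays of the same number share a hybridization day per the file headers. Their deviations from the group means correlated at 0.208 on U74A and 0.179 on U74Av2, so the replicate number was used as a block in an alternative. The second SB203580 array of U74Av2 was hybridized on day 4, and the control and PD169316 arrays of that number on day 5. For that array compound and day cannot be told apart, and with the day as a block it does not bear on the SB203580 estimate.

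Genes were named from the platform annotation (1 symbol for 10276 probe sets on U74A and 10833 on U74Av2). Named members were the 4 highest and 4 lowest per S1 comparison among those tested on both versions, the 3 each way for D4, members called under any fit, and genes fixed by role; a few others are named from counts after their values were seen. The members and lists were chosen with earlier results of these data known.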

Additional observations from a re-analysis of the deposited data

How the results depend on the processing

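The alternatives were quantile normalization, centring, no filter, a minimum signal of 200, floors of 16 and 64, no trend, the mean of all probe sets of a gene, the replicate block, the hybridization day as a block and each array left out. The fit without the day 3 controls and, for the lines, the day as a random block were chosen after seeing the data. For single members, 556 values kept sign and side of the threshold, 13 reversed and 2 became stronger. The replicate block, with the pairing from shared hybridization days, called 1 member on U74Av2 and 1 over both versions for PD169316 against control, Rps19 each time (0.67, adjusted p 0.018 by limma over both; 0.752% and 3.77% of probe sets passed). It changed no other member's call, and it was not run for SB203580 on U74A, whose array has no number. The day block called 2 on U74Av2 and 1 over both (Rps19 0.67, adjusted p 0.002; 2.27% and 4.73%). Leaving out 1 array called 0 to 1 members on U74Av2 and 0 elsewhere. Without a filter, 2 members passed the interaction with line, Rpl35a and Rps20, both at or near the floor, against 4.04% of probe sets.

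The U74Av2 median for PD169316 was 0.048 after quantile normalization, 0.030 centred, 0.054 without a filter and 0.15 without the day 3 controls. For SB203580 it was 0.043 (U74A, quantile) and 0.12 (U74Av2, without the day 3 controls). For PD169316 minus SB203580 it was 0.051 (U74A, quantile), and on U74Av2 0.0040 (quantile), -0.038 (centred), 0.053 (no filter), 0.12 (mean of probe sets) and 0.057 (day block). The interaction was -0.035 (quantile) and 0.40 (centred), and the D4 ratio -0.0034 (quantile). With 1 array left out, medians ran from -0.081 to 0.26 (PD169316, U74A), 0.037 to 0.18 (PD169316, U74Av2), -0.054 to 0.12 (SB203580, U74Av2) and -0.018 to 0.15 (PD169316 minus SB203580, U74Av2).

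Replicate differences became 0.13 and -0.18 (U74A control), 0.035 and 0.072 (U74A PD169316), 0.016 and 0.075 (U74Av2 control) and 0 and 0.24 (U74Av2 PD169316) by quantile normalization and centring, and 0.090 (U74Av2 SB203580, centred). That of U74Av2 control was also 0 without a filter, -0.089 at a minimum of 200 and -0.090 as the mean of probe sets.

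Members that reversed over both versions with 1 array left out were Rps29 (PD169316, -0.035 to 0.63), Rpl6 (PD169316, -0.099 to 0.044), Rpl37a (SB203580, -0.067 to 0.28), Rps13 (PD169316 minus SB203580, -0.55 to 0.30), Rpl7a (same, -0.16 to 0.082) and, for D4 against S1, Rps29 (-0.68 to 0.069). Rps29 also became -0.13 for PD169316 without the day 3 controls and 0.097 for SB203580 with the day block. The cause was not tested. Over all probe sets the 101 calls for PD169316 over both versions ranged from 1 without a filter to 254 with the day block, and were 31 without a trend; the 37 between the compounds ranged from 3 to 129. U74A had 1 call (0 to 10) and U74Av2 had 9 (0 to 160). Members near the floor, such as Rps29 and Rpl38, are limited by signal over background.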

Other observations

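Probe sets whose annotation pairs a ribosomal protein symbol with other symbols were not members, and their values are given beside those of the members. On U74A 29 of 32 such probe sets were tested, and for PD169316 against control in S1 20 were positive, with a median log2 fold change of 0.11, where the members' median was 0.096. In the D4 pair 24 of these 29 were higher with PD169316, with a median log2 ratio of 0.48, where the members' median was 0.32. For SB203580 in S1 on U74A 5 of the 29 were positive, with a median of -0.26, where the members' median was -0.18. For D4 against S1 14 of the 29 were positive, with a median of -0.0089, where the members' median was 0.12. On U74Av2 35 of 38 were tested, 25 were positive with PD169316, and the median was 0.066, where the members' median was 0.099. For SB203580 there 16 of the 35 were positive, with a median of -0.0095, where the members' median was 0.037. Of all probe sets tested on U74A, 53.6% were positive for PD169316 and 47.9% for SB203580 in S1. In the D4 pair 49.2% were higher, and for D4 against S1 55.3% were positive. On U74Av2 the shares were 50.1% for PD169316 and 47.1% for SB203580. By limma 0 of the probe sets with several symbols passed in the comparisons of S1 or of the lines named here, against 0% to 0.128% of all. The count of 0 is therefore no result about the probe sets with several symbols. They share symbols and possibly sequence with the members, so they are not independent of them.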
